A study of Homo sapiens with 6 samples.

Results

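The collagen chain genes were followed across 6 microarrays of MCF-10A cells, an immortalized but non-transformed line of human mammary epithelial cells. Members were chosen by name from the Human Genome U133 Plus 2.0 array. They were all probe sets whose platform annotation gave 1 gene symbol and no other, of the form COL, a number, A and a number. They came to 112 probe sets of 43 genes, out of 54613 probe sets and 19775 singly named genes on the array. Of these genes, 11 encode fibrillar chains, 8 chains of the basement membrane and 24 other chains. A probe set for an antisense transcript (COL18A1-AS1) was left out. COL17A1 was left out by rule as well, and nothing is reported on it.

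The CRB3-expressing cells (3 arrays) carried a retroviral pNG-Crb3 construct, which encodes the apical polarity protein CRB3 with a myc tag at its amino terminus, and the vector control cells (3 arrays) carried the empty pNG retrovirus. Both populations were selected with puromycin, grown in the line's normal medium and harvested as proliferating monolayers at 70% confluence. Neither the labels nor the methods say whether replicates came from separate infections or whether the lines were clones, so the p-values reflect the spread among these 6 samples alone, which may be technical. CRB3 itself averaged 12.11 ± 0.10 on the CRB3-expressing arrays and 7.78 ± 0.17 on the vector control arrays (log2, SD, n = 3 each). The array medians lay between 5.84 and 5.88, and arrays correlated at 0.997 to 0.998 within groups and at 0.994 to 0.996 across them. All 8 of the mammary epithelial markers that could be measured lay above a mean log2 of 6, as did some markers of fibroblasts, endothelial cells and leukocytes.

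Collagens are extracellular proteins built of 3 polypeptide chains wound into a triple helix, and each gene encodes 1 kind of chain. Fibrillar chains assemble into the banded fibrils of connective tissue, and type IV chains form the sheet-like network of the basement membrane on which mammary epithelium rests. The remaining chains decorate fibrils, anchor the basement membrane, span the plasma membrane or form smaller networks.

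Expression was given as 1 normalized log2 value (RMA) per probe set and array. A probe set was called changed at a limma adjusted p under 0.05 together with a fold change above 1.5, which is 0.58 on the log2 scale, and differences are CRB3-expressing minus vector control throughout. For each gene, the values are those of its brightest probe set, taken by the mean of the 6 arrays. Levels of different probe sets were not set against each other, since probes differ in brightness, and a mean log2 of 6 served only as a common floor. In such bulk samples, fewer cells of a type and less RNA per cell cannot be told apart.

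Few collagen chains changed with CRB3, and those called were all higher. COL8A1, COL12A1 and COL4A4 were called higher among 43 genes, while 0 genes were called lower and 40 were not called. Over all named genes, 1.43% were called higher and 0.465% lower. Among the 20 collagen genes above a mean log2 of 6, the 2 called were COL8A1 and COL12A1, against 2.10% called higher and 0.683% called lower of all named genes above that level. On the level of probe sets, 6 of 112 were called higher and 0 lower, where 0.948% of all probe sets were called higher and 0.363% lower. At an unadjusted p under 0.05 the counts were 11 collagen probe sets higher and 11 lower of 112, near the 8.15% higher and 8.16% lower of all probe sets.

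**Figure D1:**
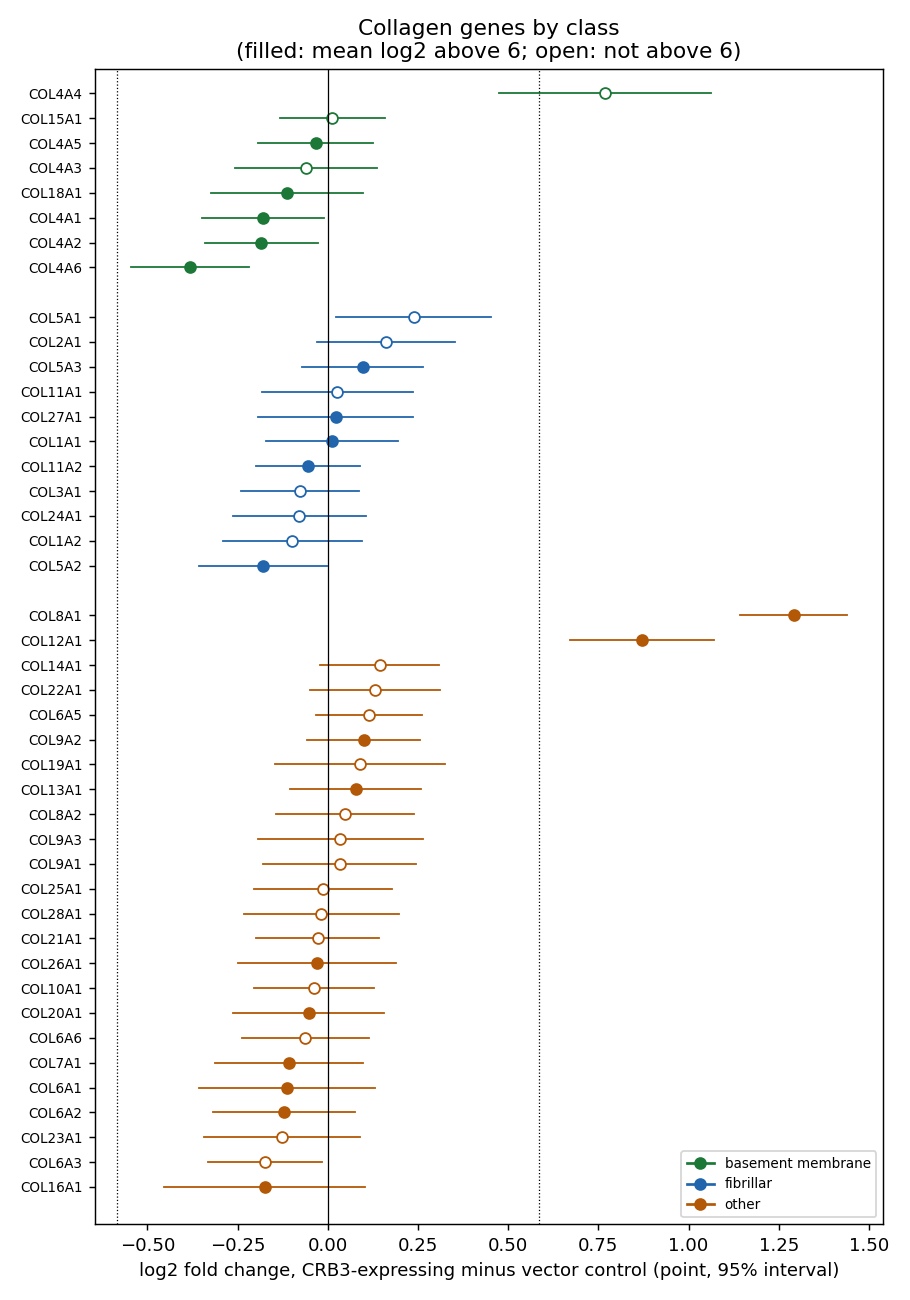
Difference in log2 value between CRB3-expressing and vector control cells (horizontal, point with 95% interval) of the 43 collagen genes, grouped as basement membrane (green), fibrillar (blue) and other (orange), with filled points for genes above a mean log2 of 6 and dotted lines at a 1.5-fold change. Only COL4A4, COL8A1 and COL12A1 lie beyond the dotted lines, and the filled basement membrane genes all lie to the left of 0.

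The class medians were small, as was the median log2 fold change of all named genes, 0.0066. The median was -0.087 over the 8 basement membrane genes, 0.012 over the 11 fibrillar genes and -0.016 over the 24 other genes. Above a mean log2 of 6, the medians were -0.18 for 5 basement membrane genes, 0.012 for 5 fibrillar genes and -0.042 for 10 other genes, against -0.0013 over all named genes above that level. The basement membrane genes above the floor thus sat lowest of the classes, by differences that stayed under the fold threshold in each gene. Without COL8A1 and COL12A1, the remaining 18 collagen genes above the floor had a median of -0.081, with 5 differences above 0 and 13 below it.

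**Figure D2:**
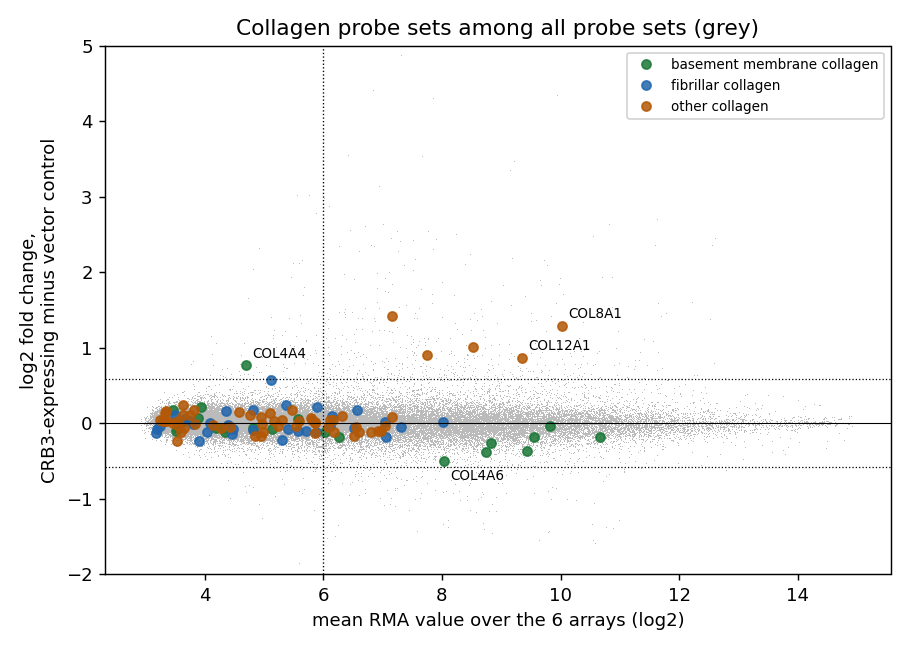
Mean RMA value over the 6 arrays (log2, horizontal) against the log2 difference between CRB3-expressing and vector control cells (vertical) for every probe set (grey dots) and for the 112 collagen probe sets by class, with dotted lines at a mean log2 of 6 and at a 1.5-fold change, and with names at the brightest called probe set of a gene and at the lowest COL4A6 value. The 35 collagen probe sets right of the vertical line include 5 of the 6 called, and the called COL4A4 probe set lies left of it at a mean of 4.70.

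The floor of 6 cut through a dense part of the collagen probe sets. Just above it lay COL18A1 probe set 209081_s_at with a mean log2 of 6.03 and COL20A1 probe set 232733_s_at with 6.08. Just below it lay COL1A1 probe set 202310_s_at with 5.90 and COL5A2 probe set 221730_at with 5.87. Of the 77 collagen probe sets that did not exceed the floor, 1 was called, and their median log2 fold change was 0.0039.

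None of the basement membrane chains above the floor was called, and 1 of them, COL4A6, was lower at an adjusted p under 0.05. COL4A1, COL4A2, COL4A5, COL4A6 and COL18A1 had probe sets above a mean log2 of 6, 9 in all, and the 9 differences ran between -0.50 and -0.034. In 5 of the 9, the CRB3-expressing arrays all lay below the vector control arrays, where 16.6% of all probe sets above the floor were lower without overlap and 15.1% higher. Unadjusted p-values were under 0.05 in 6 of the 9, all lower, where 12.6% of all probe sets above the floor were lower and 10.8% higher at that threshold. Both counts came from COL4A1, COL4A2 and COL4A6 alone, and probe sets of the same gene are not independent. By gene, 3 of 5 were lower at an unadjusted p under 0.05, against 11.4% lower and 12.7% higher of all named genes above the floor.

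COL4A6, which joins the alpha 5 chain in a network found in epithelial basement membranes, had the lowest difference of the class. Its brightest probe set (213992_at) read 8.60, 8.60 and 8.44 on the CRB3-expressing arrays, against 8.84, 8.97 and 8.97 on the vector control arrays. The groups did not overlap, and the difference of -0.38 (SE 0.072, adjusted p = 0.0221) passed the p threshold but not the fold threshold. Over all named genes, 3.37% were higher and 1.77% lower at an adjusted p under 0.05 with no fold threshold. A second COL4A6 probe set (211473_s_at) read 7.61, 7.64 and 8.12 on the CRB3-expressing arrays, against 8.40, 8.18 and 8.30 on the vector control arrays. Its replicate 3 of the CRB3-expressing cells stood near the vector control arrays, and the difference was -0.50 (SE 0.13, adjusted p = 0.0877). Without that array the probe set was called lower, at -0.67 with an adjusted p of 0.00634. The third COL4A6 probe set (210945_at) differed by -0.18 (adjusted p = 0.392), with overlapping groups. COL4A5, the partner chain, read 9.79, 9.85 and 9.77 on the CRB3-expressing arrays, against 9.75, 9.94 and 9.82 on the vector control arrays. Its groups overlapped, and its difference was -0.034 with a 95% interval of -0.19 to 0.13.

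COL4A1 and COL4A2 encode the alpha 1 and alpha 2 chains, which form the network common to nearly all basement membranes. COL4A1 (211980_at) read 9.47, 9.55 and 9.36 on the CRB3-expressing arrays, against 9.57, 9.73 and 9.62 on the vector control arrays, a difference of -0.18 (SE 0.074, adjusted p = 0.275). COL4A2 (211964_at) read 10.56, 10.67 and 10.49 on the CRB3-expressing arrays, against 10.76, 10.80 and 10.71 on the vector control arrays, a difference that also rounded to -0.18 (SE 0.069, adjusted p = 0.224). In both genes every CRB3-expressing array lay below every vector control array, by a margin that the adjusted test did not separate from the spread. The second probe sets differed by -0.26 (211981_at of COL4A1, adjusted p = 0.162) and by -0.37 (211966_at of COL4A2, adjusted p = 0.161). When all probe sets of a gene were averaged on each array, the adjusted p fell under 0.05 for both genes, with -0.22 (adjusted p = 0.0334) for COL4A1 and -0.28 (adjusted p = 0.0375) for COL4A2, and the fold threshold was still not reached. COL18A1, a basement membrane proteoglycan whose carboxy-terminal fragment is endostatin, differed by -0.11 (95% interval -0.32 to 0.097).

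**Figure D3:**
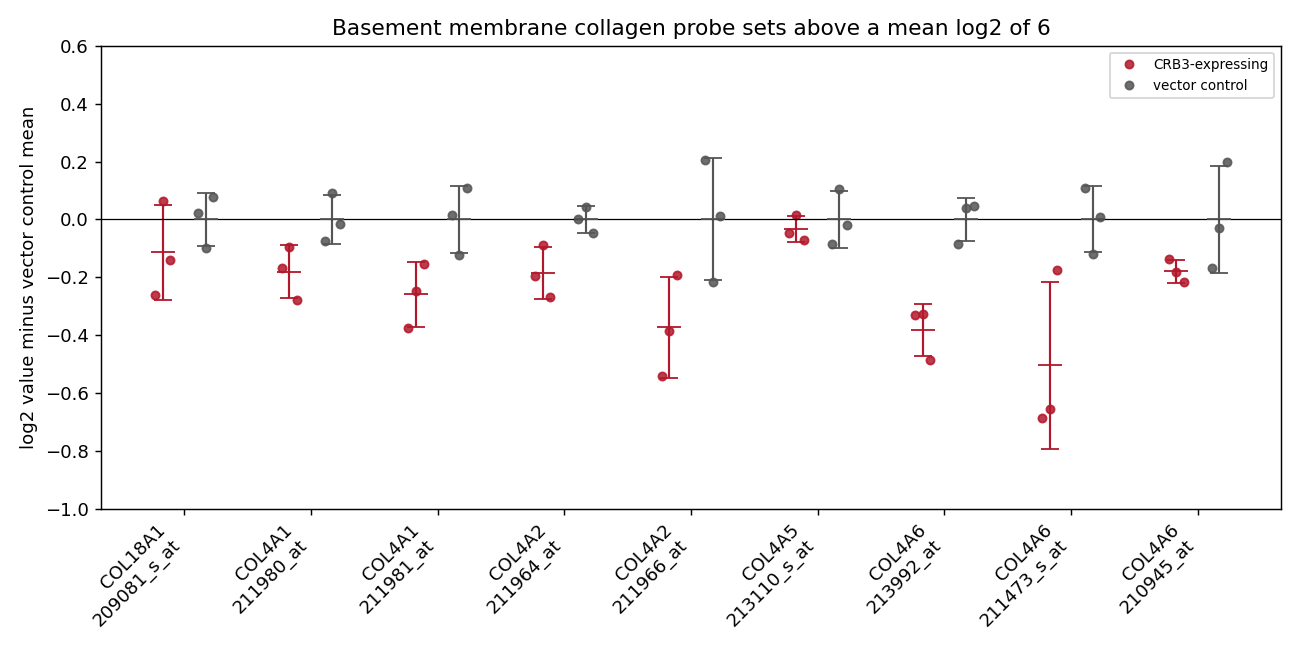
RMA log2 value minus the vector control mean of the same probe set (vertical) on each array for the 9 basement membrane collagen probe sets above a mean log2 of 6, with CRB3-expressing arrays in red, vector control arrays in grey, and bars at the mean ± SD (n = 3 each). The red means all lie under 0, and replicate 3 of the CRB3-expressing cells lies apart from the other 2 in COL4A6 probe set 211473_s_at.

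The type IV genes lie in head-to-head pairs, each pair reading outwards from a short shared stretch. The sequence before the start is shown for 1 gene of each pair, because the paired genes encode chains of the same networks. The sequences are from RefSeq on GRCh38.p14 and run 5′ to 3′ on the minus strand, and capitals mark matches to any of 5 motifs searched on both strands. COL4A1 and COL4A2 start 127 bases apart, and the first line gives the 126 bases between their starts (chr13:110307158-110307283). COL4A6 and COL4A5 start 380 bases apart (chrX:108439459-108439708), and COL4A4 and COL4A3 start 419 bases apart (chr2:227164206-227164455), and for these the 250 bases before the first-named start are given, taking of the COL4A6 starts the one nearest to COL4A5.
COL4A1: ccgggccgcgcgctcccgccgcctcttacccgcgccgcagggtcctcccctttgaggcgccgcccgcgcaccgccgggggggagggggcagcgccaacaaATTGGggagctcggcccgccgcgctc
COL4A6: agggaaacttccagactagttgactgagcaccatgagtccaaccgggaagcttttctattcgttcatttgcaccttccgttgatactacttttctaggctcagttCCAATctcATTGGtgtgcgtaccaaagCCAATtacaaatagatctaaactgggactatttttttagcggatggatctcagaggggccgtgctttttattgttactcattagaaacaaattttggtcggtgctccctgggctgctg
COL4A4: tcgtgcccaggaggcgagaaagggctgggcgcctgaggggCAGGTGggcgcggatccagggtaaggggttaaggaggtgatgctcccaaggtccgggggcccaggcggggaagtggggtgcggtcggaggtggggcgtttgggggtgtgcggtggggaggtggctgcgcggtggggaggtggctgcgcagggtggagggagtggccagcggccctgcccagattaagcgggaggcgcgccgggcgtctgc

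The stretch between COL4A1 and COL4A2 is 80.2% G and C and holds 1 CCAAT box, while the COL4A6 stretch is 44.0% G and C and holds 3. CCAAT occurs in 34.6% of the 35116 RefSeq windows of 300 bases and in 30.2% of the 43 windows of collagen genes. The COL4A4 stretch is 72.8% G and C and holds 1 CAGGTG, an E-box of the kind read by the SNAI and ZEB factors, which occurs in 20.6% of all windows and in 11.6% of the collagen windows. These matches describe letters and not occupied sites. Windows were found for 31 of the 43 collagen genes.

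COL4A4 was the single basement membrane gene called, and its level was under the floor. COL4A4 encodes the alpha 4 chain, which with the alpha 3 and alpha 5 chains forms the network known from the glomerular basement membrane. Its brightest probe set (229779_at) read 5.02, 5.34 and 4.88 on the CRB3-expressing arrays, against 4.31, 4.49 and 4.13 on the vector control arrays. The groups did not overlap, and the difference was 0.77 (SE 0.13, 1.70-fold, adjusted p = 0.0128). The other 2 COL4A4 probe sets were not called, with differences of -0.12 (241565_at, adjusted p = 0.384) and 0.22 (214602_at, adjusted p = 0.104), so the probe sets of this gene disagreed in direction. Its neighbour COL4A3 had 7 probe sets, all under the floor and none called. COL15A1, a relative of COL18A1, was under the floor as well, at a difference of 0.013.

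No fibrillar chain was called. Of the 33 fibrillar probe sets, 0 were called in either direction by limma, 3 were higher and 3 lower at an unadjusted p under 0.05 (8.15% and 8.16% of all probe sets), and the lowest adjusted p was 0.0909. COL1A1, COL5A2, COL5A3, COL11A2 and COL27A1 lay above the floor, while COL1A2, COL2A1, COL3A1, COL5A1, COL11A1 and COL24A1 did not.

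COL1A1 encodes the major chain of type I collagen, the main fibrillar collagen of stroma. Its brightest probe set (217430_x_at) read 8.10, 7.86 and 8.11 on the CRB3-expressing arrays, against 8.00, 8.05 and 7.97 on the vector control arrays. The groups overlapped, and the difference of 0.012 had a 95% interval of -0.17 to 0.19. This probe set bears the suffix of probes that can also bind other transcripts. The other COL1A1 probe sets were spread more widely. Probe set 1556499_s_at read 5.64, 5.52 and 5.08 on the CRB3-expressing arrays, against 4.47, 5.17 and 4.87 on the vector control arrays, a difference of 0.58 (SE 0.19, adjusted p = 0.161) under the floor and with overlapping groups. Probe set 202310_s_at, just under the floor, was higher without overlap by 0.22 (adjusted p = 0.181), and 202312_s_at, above it, differed by -0.065.

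COL5A2 is a chain of type V collagen, which starts and limits the growth of type I fibrils. Its brightest probe set (221729_at) read 6.99, 6.91 and 7.01 on the CRB3-expressing arrays, against 7.03, 7.28 and 7.13 on the vector control arrays, a difference of -0.18 (SE 0.078, adjusted p = 0.301). The groups did not overlap, but only narrowly. COL5A3, a further type V chain, differed by 0.096 (95% interval -0.072 to 0.26), and COL5A1, under the floor, by 0.24 (adjusted p = 0.255). COL11A2 and COL27A1, known from cartilage, differed by -0.056 (95% interval -0.20 to 0.088) and by 0.022 (95% interval -0.19 to 0.24). The intervals of these 5 genes above the floor all ended short of a 1.5-fold change in either direction. COL3A1, which accompanies type I collagen in extensible tissues, had 5 probe sets under the floor, and its probe set 201852_x_at came nearest to a call, at -0.24 (adjusted p = 0.0909).

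The largest differences among collagens were those of COL8A1, from the class of other chains. COL8A1 encodes the alpha 1 chain of type VIII collagen, a short-chain collagen of hexagonal networks known from the cornea and vessel walls. Its brightest probe set (226237_at) read 10.74, 10.69 and 10.59 on the CRB3-expressing arrays, against 9.38, 9.42 and 9.35 on the vector control arrays. The groups lay more than 1 log2 unit apart, and the difference was 1.29 (SE 0.066, 2.45-fold, adjusted p = 1.08e-05). A second probe set (214587_at) read 7.75, 7.90 and 7.98 on the CRB3-expressing arrays, against 6.38, 6.30 and 6.68 on the vector control arrays, a difference of 1.43 (SE 0.11, 2.69-fold, adjusted p = 1.08e-04). The third (221152_at), with a mean of 3.74, differed by 0.11 (adjusted p = 0.622) and was not called. COL8A2, the partner chain of type VIII, was under the floor and differed by 0.048, and the related short-chain COL10A1 by -0.038.

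COL12A1 was called higher through 3 probe sets. It encodes type XII collagen, a fibril-associated chain that binds along type I fibrils. Probe set 225664_at read 9.84, 9.79 and 9.73 on the CRB3-expressing arrays, against 8.73, 9.04 and 8.97 on the vector control arrays, a difference of 0.87 (SE 0.088, 1.83-fold, adjusted p = 7.02e-04). Probe set 231766_s_at read 9.07, 9.00 and 9.01 on the CRB3-expressing arrays, against 7.92, 8.07 and 8.08 on the vector control arrays, a difference of 1.01 (SE 0.068, 2.01-fold, adjusted p = 6.15e-05). Probe set 231879_at read 8.18, 8.21 and 8.19 on the CRB3-expressing arrays, against 7.26, 7.34 and 7.27 on the vector control arrays, a difference of 0.90 (SE 0.059, 1.87-fold, adjusted p = 5.48e-05). In all 3 the groups were separate, and the CRB3-expressing arrays lay closer together than the vector control arrays. The other 2 COL12A1 probe sets were under the floor and not called, with differences of 0.070 (234951_s_at, adjusted p = 0.743) and 0.17 (233109_at, adjusted p = 0.516).

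**Figure D4:**
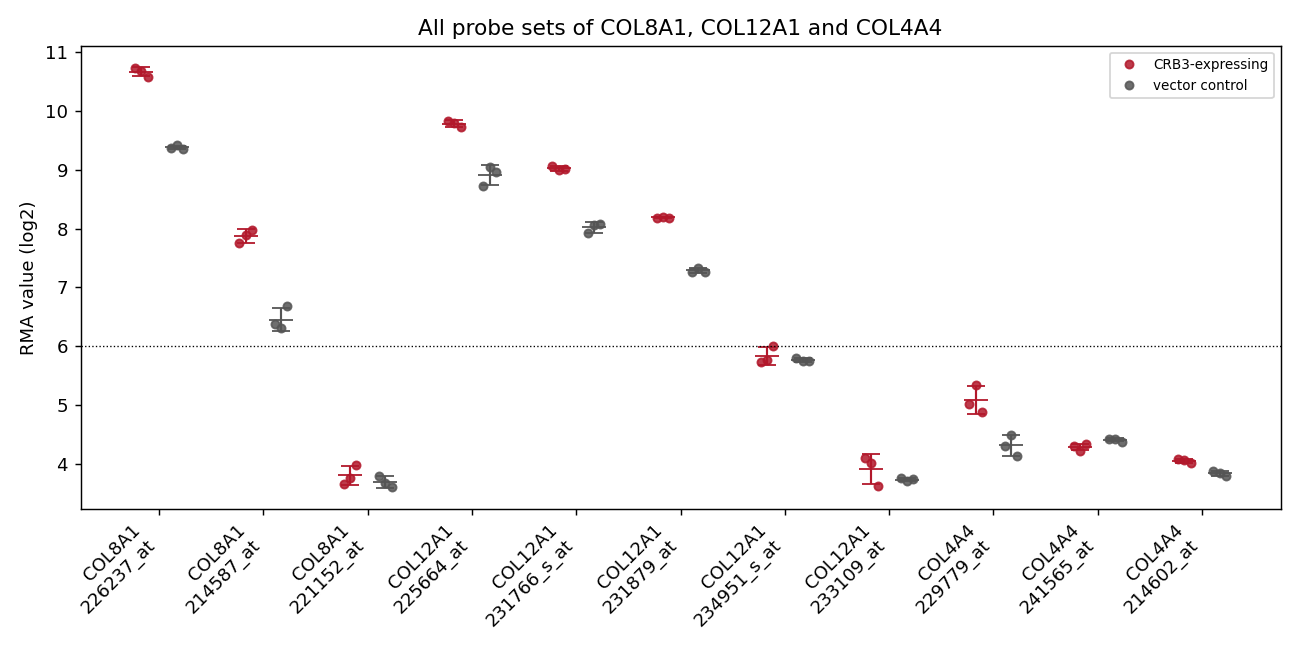
RMA value (log2) on each array for all probe sets of COL8A1, COL12A1 and COL4A4, the 3 collagen genes called, with CRB3-expressing arrays in red, vector control arrays in grey, bars at the mean ± SD (n = 3 each) and a dotted line at 6. The 5 probe sets of COL8A1 and COL12A1 above the line separate the groups, and those under it do not, apart from the COL4A4 probe sets.

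The sequence before the COL12A1 start is shown because this gene had the most called probe sets. It covers chr6:75206054-75206303 on the minus strand (RefSeq, GRCh38.p14), and the capitals mark a GGAATG, the core letters read by TEAD factors, whose first base on this strand lies 167 bases before the start.
COL12A1: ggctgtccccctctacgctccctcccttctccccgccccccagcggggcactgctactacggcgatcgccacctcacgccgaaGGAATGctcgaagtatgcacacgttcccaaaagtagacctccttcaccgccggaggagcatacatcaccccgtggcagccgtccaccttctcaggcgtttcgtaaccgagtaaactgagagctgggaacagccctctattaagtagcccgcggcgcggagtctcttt

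GGAATG occurred in 14.0% of all 35116 windows and in 6.98% of the 43 collagen windows on either strand. The remaining motifs searched, TATAAA and TGANTCA (the AP-1 site), were found in 11.5% and 7.71% of all windows and in 16.3% and 2.33% of the collagen windows, and in none of the stretches printed here. No window was found for COL8A1.

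Of the other 22 genes in this class, none was called. Type XII belongs to the fibril-associated chains, of which COL9A2, COL16A1 and COL20A1 also lay above the floor. COL16A1 read 6.41, 6.60 and 6.31 on the CRB3-expressing arrays, against 6.82, 6.66 and 6.36 on the vector control arrays, a difference of -0.17 with an interval of -0.45 to 0.10. COL9A2 differed by 0.10 and COL20A1 by -0.053, with overlapping groups in both. COL14A1, the chain nearest to COL12A1 in kind, was under the floor, and its brightest probe set was higher without overlap by 0.14 (adjusted p = 0.380).

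COL7A1, which forms the anchoring fibrils that tie the basement membrane of skin to the tissue under it, had both its probe sets above the floor and differed by -0.11 (95% interval -0.31 to 0.098) and by -0.052. COL6A1 and COL6A2, chains of the beaded filaments of type VI collagen found near cell surfaces, differed by -0.11 (95% interval -0.36 to 0.13) and by -0.12 (95% interval -0.32 to 0.076). COL6A3, the third chain of that filament, was under the floor and lower without overlap by -0.17 (adjusted p = 0.256). COL13A1, a transmembrane collagen of cell-matrix contacts, differed by 0.077 and by -0.11 in its 2 probe sets above the floor and by 0.18 (adjusted p = 0.347) in the probe set under it. COL26A1 (233894_x_at) differed by -0.030. Its probe set and the brightest of COL13A1 (208535_x_at) also bear the suffix of probes that can bind other transcripts. None of these genes was called, and none of the intervals quoted reached 1.5-fold.

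None of the genes that make and assemble collagen chains was called. Of 24 biosynthesis genes listed by role, which hydroxylate, glycosylate, fold or export the chains, 23 had a singly named probe set and all 23 lay above the floor. By limma 0 were called in either direction, 3 were higher and 2 lower at an unadjusted p under 0.05 (12.7% and 11.4% of all named genes above the floor), and the median log2 fold change was -0.023. P3H2, a prolyl 3-hydroxylase that acts on type IV collagen, read 10.28, 10.39 and 10.24 on the CRB3-expressing arrays, against 9.77, 9.86 and 9.80 on the vector control arrays. Its difference of 0.50 (SE 0.067, adjusted p = 0.00368) stayed under the fold threshold. A second P3H2 probe set above the floor (230813_at) differed by only 0.11 (adjusted p = 0.504), with overlapping groups. PLOD2, a lysyl hydroxylase, was next among the biosynthesis genes, with 0.27 (adjusted p = 0.0864). SERPINH1, the collagen chaperone, differed by -0.084, and the prolyl 4-hydroxylase subunits P4HA1, P4HA2, P4HA3 and P4HB by 0.058 to 0.11 in their brightest probe sets. Further probe sets above the floor went the other way, with -0.12 (200656_s_at) and -0.16 (1564494_s_at) for P4HB and -0.10 (1568611_at) for P4HA2.

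**Figure D5:**
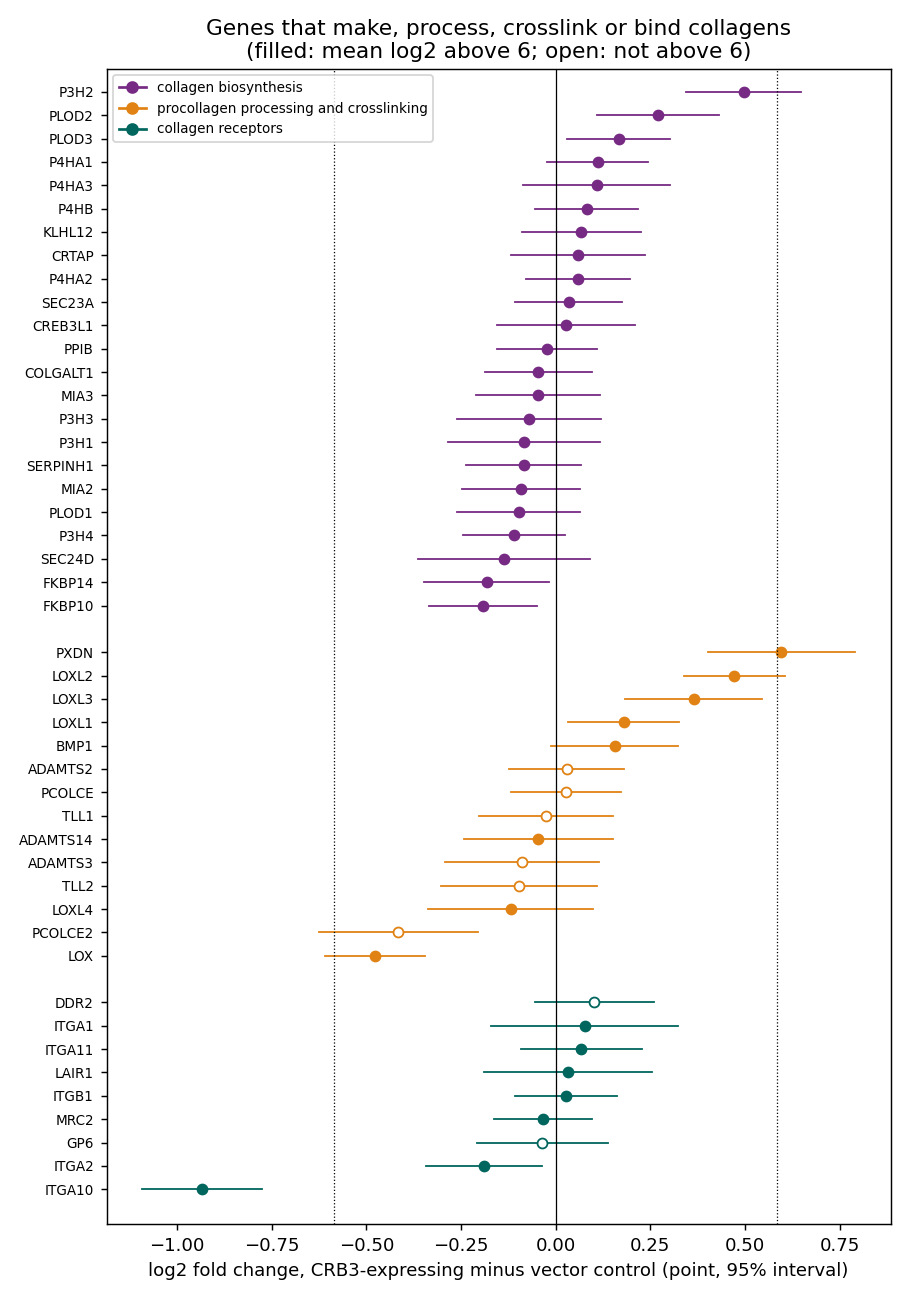
Difference in log2 value between CRB3-expressing and vector control cells (horizontal, point with 95% interval) of genes that make (purple), process and crosslink (orange) or bind (green) collagens, with filled points above a mean log2 of 6 and dotted lines at a 1.5-fold change. PXDN lies just beyond the right line at 0.60, ITGA10 lies beyond the left line at -0.93, and the biosynthesis genes lie between the lines.

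Among 14 genes that trim procollagen or crosslink it, PXDN was called higher and 0 were called lower, with a median of 0.0014. The shares called of all named genes were 1.43% higher and 0.465% lower. PXDN, peroxidasin, forms the sulfilimine crosslinks of the type IV network. Its probe set 212012_at read 9.52, 9.63 and 9.46 on the CRB3-expressing arrays, against 8.83, 9.10 and 8.90 on the vector control arrays, a difference of 0.60 (SE 0.086, 1.51-fold, adjusted p = 0.00528). The groups were separate, but the fold lay at the threshold, and the call was lost without CRB3-expressing replicate 2 (0.55), without vector control replicate 1 (0.54) and without vector control replicate 3 (0.58). A second PXDN probe set differed by 0.53 (adjusted p = 0.00140) and was under the fold threshold.

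The lysyl oxidases, which crosslink fibrillar collagen and elastin, did not run in 1 direction. LOX read 7.62, 7.63 and 7.62 on the CRB3-expressing arrays, against 8.07, 8.09 and 8.13 on the vector control arrays, a difference of -0.48 (SE 0.058, adjusted p = 0.00195). LOXL2 read 10.38, 10.44 and 10.46 on the CRB3-expressing arrays, against 9.96, 9.96 and 9.95 on the vector control arrays, a difference of 0.47 (SE 0.059, adjusted p = 0.00228). In these brightest probe sets both genes had separate groups and missed the fold threshold, on opposite sides of 0. Further LOX probe sets were lower without overlap by -0.34 (204298_s_at, adjusted p = 0.127) and -0.10 (213640_s_at, adjusted p = 0.465). LOXL2 probe set 202997_s_at, above the floor, differed by 0.19 (adjusted p = 0.331) with overlapping groups. Under the floor, LOXL2 differed by 0.040 (202999_s_at) and -0.042 (228808_s_at). LOXL3 differed by 0.37 (adjusted p = 0.0430), and PCOLCE2, an enhancer of carboxy-terminal propeptide cleavage, by -0.42 (adjusted p = 0.0466), again short of 1.5-fold.

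Of 10 collagen receptor genes, 9 had a singly named probe set, and DDR2 was the only discoidin domain receptor among them. ITGA10 was called lower, with 0 called higher and a median of 0.027, where 1.43% of all named genes were called higher and 0.465% lower. ITGA10, the alpha 10 integrin subunit known from cartilage, read 7.22, 7.15 and 7.20 on the CRB3-expressing arrays, against 8.02, 8.22 and 8.13 on the vector control arrays, a difference of -0.93 (SE 0.070, adjusted p = 1.13e-04). Its groups stood apart by more than their spread. ITGA2 of the main epithelial collagen receptor differed by -0.19 (adjusted p = 0.204) and its partner ITGB1 by 0.027 (adjusted p = 0.874).

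Because collagens are also made by stromal cells, the markers of such cells were read on the same arrays. Of 10 fibroblast markers 5 lay above the floor, FAP was called higher at 1.31 (adjusted p = 7.21e-05), and DCN was called lower at -0.76 (adjusted p = 0.00249). Of the other 3 above the floor, FBLN1 was higher at 0.32 (adjusted p = 0.0334, under the fold threshold), while THY1 differed by 0.029 and S100A4 by -0.085. The remaining 5, PDGFRA, PDGFRB, LUM, TCF21 and POSTN, were under the floor and not called. Of all named genes, 1.43% were called higher and 0.465% lower. On the linear scale, the 10 fibroblast markers summed to 2980 to 3134 on CRB3-expressing arrays and 2639 to 2846 on vector control arrays. That sum was higher in CRB3-expressing cells, as were COL8A1 and COL12A1, but it rests mostly on the brightest markers. The median log2 fold change of the 10 was 0.029, with 7 differences above 0 and 3 below it. Of the 8 mammary epithelial markers measured, KRT14 was called higher at 1.83, CDH1 at 1.10 and KRT8 at 1.08. ITGA6 was lower at -0.36 (adjusted p = 0.0388, under the fold threshold). Of all named genes above the floor, 2.10% were called higher and 0.683% lower. The 8 epithelial markers summed to 44085 to 46291 on the CRB3-expressing arrays and to 35862 to 36606 on the vector control arrays. The part of either sum in the collagen differences was not tested. Above the floor lay 2 of 6 endothelial markers, PECAM1 and VWF, and 2 of the 4 leukocyte markers measured, CD14 and CD79A. None of the endothelial or leukocyte markers was called by limma, with 0 of either at an unadjusted p under 0.05.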

How the data were processed

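Total RNA of CRB3-expressing and vector control cells, 3 samples each, was hybridized to Human Genome U133 Plus 2.0 arrays. The authors deposited RMA values, background-corrected and normalized in R/Bioconductor, as 1 log2 number for each probe set on each array, and these were tested without further scaling. The submitters' processing notes name RMA and limma without versions. Groups came from the sample titles. The 62 control probe sets were left out. CRB3-expressing arrays were compared with vector control arrays by lmFit and eBayes of limma 3.58.1 (R 4.3.3) with no block, and p-values were adjusted over 54613 probe sets by the Benjamini-Hochberg method. Calls needed an adjusted p under 0.05 and a fold above 1.5, as in the study's methods. Gene symbols came from the platform annotation (41091 probe sets with 1 symbol, 1801 with several, 11721 with none), and all 43 collagen symbols were current in RefSeq. The deposited values hold no detection calls, differences of dim probe sets can be understated, and 3 arrays a group limit the precision.

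Members, classes and lists were chosen with earlier results of these data known, and the promoter motifs after the values were seen. The text names every called collagen probe set, all probe sets of such a gene, every collagen gene above a mean log2 of 6, probe sets next to that level, and, in related lists, called members or else the 2 with the lowest p. All other genes were picked with their values in view. The fit was tested on simulated data. Alternatives were the replicate block, variance priors, scaling, filters on dim probe sets, array weights, fold thresholds, the rule for a gene's probe set, the level, the class of COL7A1 and leaving out each array.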

Additional observations from a re-analysis of the deposited data

How the results depend on the processing

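COL8A1 kept its call in both bright probe sets under all 17 alternatives, with differences of 1.26 to 1.33 (226237_at) and 1.35 to 1.54 (214587_at), and COL12A1 kept its call in 231766_s_at under all 17 (0.96 to 1.03). Without empirical Bayes, 1 collagen gene was called higher, since COL12A1 probe set 225664_at (adjusted p = 0.0587) and COL4A4 (adjusted p = 0.184) were lost, and 0 processing and crosslinking genes were. With a fold above 2, or with limma's treat test against 1.5-fold, 3 collagen probe sets and 1 collagen gene were called higher, 0 processing genes were called higher and 0 receptor genes lower. With no fold threshold, 1 collagen probe set and 1 collagen gene (COL4A6) were called lower, 1 biosynthesis gene higher, and 3 processing genes higher and 2 lower. Centring the arrays on their medians, or averaging the probe sets of a gene, left 0 processing genes called higher, and centring turned COL1A1 to -0.00095. Averaging also ended the COL4A4 call (0.29, adjusted p = 0.0218), which left 2 collagen genes called higher, and both filters at a level of 6 left 2, since COL4A4 was then not tested.

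The medians of the classes moved more. At a level of 7 in place of 6, the median above the level was -0.022 for fibrillar genes and 0.47 for other genes. That last median rests on COL8A1 (1.29), COL12A1 (0.87), COL13A1 (0.077) and COL26A1 (-0.030) alone, and lies between called and uncalled genes. Averaging the probe sets of a gene gave -0.25 for basement membrane genes above the level, and leaving out the suffixes _x_at and _s_at, which left 37 of 43 genes, gave -0.055 for fibrillar genes. Leaving out 1 array at a time, the median ran between -0.031 and 0.0031 for fibrillar genes, between -0.031 and 0.026 for those above the level and between -0.13 and -0.061 for basement membrane genes. Collagen probe sets called lower then numbered 0 to 1 and processing genes called higher 0 to 1. COL1A1 then ran between -0.031 and 0.093, COL27A1 between -0.075 and 0.12, COL4A5 between -0.077 and 0.019, COL20A1 between -0.16 and 0.018, and COL26A1 between -0.12 and 0.069, so these 5 genes have no settled direction. The causes were not tested.

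Same-numbered arrays deviated together with correlations of -0.085, 0.064 and 0.029, and differently numbered arrays with -0.19 to 0.16. Such values from 3 arrays a group cannot tell whether the samples were prepared in pairs. With the replicate number as a block, 6 collagen probe sets and 3 collagen genes were called higher and 0 lower, and none of the calls refitted for the collagen and related genes of the report changed. COL4A6 (213992_at) then had an adjusted p of 0.0598.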
